A study of Homo sapiens with 4 samples.

Results

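Small nucleolar RNA host genes are transcription units whose introns carry small nucleolar RNAs (snoRNAs). The members described here were all genes of the deposited count table whose symbol was SNHG followed by a number, which gave 28 of 61806 genes. The cells were U251-MG, an established human glioblastoma line. The group called COL8A1 was 2 libraries from cells infected with a lentivirus made from the pCDH-CMV-MCS-EF1-puro vector with the cDNA of COL8A1, a chain of collagen VIII, driven by the viral CMV promoter that the vector is named for. The group called NC was 2 libraries from cells infected with the negative control lentivirus. Both groups are labelled wild type in genotype, and no clone, time after infection or drug selection is given in the sources used here. Nor do the labels say whether a group's libraries are separate cultures. All p-values rest on spreads between 2 libraries a group, those of the gene itself and, by moderation, those of all genes fitted. These spreads may therefore be technical.

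A host gene is transcribed and spliced like a messenger RNA, and the snoRNA is trimmed out of an excised intron. SnoRNAs guide chemical changes of ribosomal RNA. Those with a box C and a box D direct methylation of the ribose and those with boxes H and ACA direct the isomerisation of uridine to pseudouridine, while relatives in Cajal bodies (scaRNAs) act on spliceosomal RNAs. The spliced exons of many hosts are exported, engage ribosomes and are destroyed by nonsense-mediated decay, so their steady level reflects transcription and decay together. Many hosts start transcription at a cytidine within a run of pyrimidines, the terminal oligopyrimidine (TOP) signal shared with ribosomal protein genes. Several SNHG transcripts have been studied as long noncoding RNAs in cancers, glioma among them.

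The start sites were looked at through a short motif of pyrimidines, CTTTT, which is not the TOP signal itself. The windows below, from the RefSeq promoter table (GRCh38.p14), run from 35 bases before the annotated start to 25 bases from it onwards, on the strand of the gene. They are the 4 members with a mean of at least 10 CPM (counts scaled to library size) and no protein-coding label that hold the letters CTTTT near the start, printed in capitals, and 2 well-expressed members that do not hold them.
SNHG29, chr17:16438952-16439011, plus strand: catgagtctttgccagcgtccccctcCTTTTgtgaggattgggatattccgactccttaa
SNHG16, chr17:76557729-76557788, plus strand: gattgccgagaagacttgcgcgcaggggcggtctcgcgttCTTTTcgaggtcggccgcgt
SNHG5, chr6:85678709-85678768, minus strand: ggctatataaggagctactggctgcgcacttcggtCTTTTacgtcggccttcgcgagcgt
SNHG19, chr16:2155334-2155393, minus strand: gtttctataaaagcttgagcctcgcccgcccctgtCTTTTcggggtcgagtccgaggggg
SNHG1, chr11:62855861-62855920, minus strand: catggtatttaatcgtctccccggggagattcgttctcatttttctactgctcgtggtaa
SNHG17, chr20:38435304-38435363, minus strand: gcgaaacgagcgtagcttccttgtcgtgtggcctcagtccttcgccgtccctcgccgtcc
In SNHG5 and SNHG19 the motif began at the annotated start itself. In SNHG16 it began 5 bases after it, and in SNHG29 before it, so in these members the annotated start was not the cytidine of the motif. SNHG1, whose window does not hold the motif, has a cytidine at its annotated start. Of the 24 members with an entry in the table, 7 held CTTTT within 20 bases of the start on the gene strand (29.2%) and 0 on the other strand, against 4.74% and 3.36% of 27305 promoters in the table. The motif and the window were chosen after the sequences were seen, so these shares describe the set and carry no test.

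The RNAs that the hosts carry are shown for 5 of them. The sequences are from GENCODE release 29 on GRCh38, 5′ to 3′. In the box C/D snoRNAs the capitals mark TGATGA, the core of box C, and the last CTGA, box D. In the H/ACA snoRNA they mark the ACA that ends 3 bases before the 3′ end.
SNORD49A in SNHG29, chr17:16440036-16440106, plus strand: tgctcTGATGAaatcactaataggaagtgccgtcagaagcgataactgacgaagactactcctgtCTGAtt
SNORD65 in SNHG29, chr17:16441226-16441298, plus strand: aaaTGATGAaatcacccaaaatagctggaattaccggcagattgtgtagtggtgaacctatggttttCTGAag
SNORD1B in SNHG16, chr17:76561109-76561192, plus strand: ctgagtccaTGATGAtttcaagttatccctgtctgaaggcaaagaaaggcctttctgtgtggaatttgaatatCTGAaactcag
SNORD27 in SNHG1, chr11:62855012-62855083, minus strand: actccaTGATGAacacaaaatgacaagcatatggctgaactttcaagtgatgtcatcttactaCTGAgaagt
SNORD104 in SNHG25, chr17:64146083-64146152, plus strand: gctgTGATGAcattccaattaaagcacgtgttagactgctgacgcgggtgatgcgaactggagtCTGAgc
SNORA24 in SNHG8, chr4:118279190-118279320, plus strand: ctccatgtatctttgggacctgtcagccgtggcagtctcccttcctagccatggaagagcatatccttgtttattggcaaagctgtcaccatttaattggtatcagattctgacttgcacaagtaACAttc

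The libraries held between 27923796 and 33576228 counts. COL8A1 itself had 4290 and 2259 counts in the COL8A1 libraries, against 77 and 82 in the NC libraries, in the direction of the labels. At 43.8 times its NC level it still missed the threshold of the test used below, with an edgeR adjusted p of 0.0681, while DESeq2 called it with an adjusted p of 1.38e-81. Of 9 markers of glioma and astroglial cells, VIM, NES, CD44, SOX2, SOX9 and EGFR averaged 99.5 CPM or more, S100B was at 2.04 CPM, and OLIG2 was at 0 counts in all 4 libraries. GFAP, the astrocyte filament gene, was at 1.94 ± 0.15 CPM in COL8A1 cells and 0.62 ± 0.086 CPM in NC cells (SD, n = 2 each), with a log2 fold change of 1.63 (SE 0.346, edgeR adjusted p = 0.580). Of the 8 tested markers 7 had a log2 fold change above 0, with a median of 0.16 and a summed level of 5091 and 4440 CPM in COL8A1 libraries, against 4246 and 4729 CPM in NC libraries. GFAP and SOX9 had an unadjusted edgeR p under 0.05, 25% of the 8 against 6.07% of all genes tested, and 0 passed after adjustment. The part of these marker values in the SNHG values below was not tested. Markers of neurons summed to at most 0.293 CPM in any library. Of the markers of other cell types, the endothelial gene CDH5 was at 65.9 CPM, VWF and PECAM1 were at 0.70 and 0.32 CPM, and the immune genes CD68, PTPRC and AIF1 were at 4.41, 0.088 and 0 CPM.

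No SNHG gene passed the test between the vectors, in a comparison of 2 libraries a group in which few genes of any kind did. Of the 28 members 24 passed the filter on low counts, and 0 of these passed an adjusted p of 0.05 in the edgeR quasi-likelihood test, against 0.0117% of the 17030 genes tested. DESeq2 called 0 of them as well, against 0.732% of the genes it tested. Since edgeR passed 2 genes in all and not COL8A1 itself, the count of 0 does not show that the members were unchanged. At an unadjusted edgeR p under 0.05, 1 member, SNHG17, was lower in COL8A1 cells and 0 were higher, where 2.63% of all genes tested were lower and 3.44% higher, or 6.07% in all. The values lay mostly a little lower in COL8A1 cells: 16 members had a fitted log2 fold change below 0 and 8 above 0. Their median was -0.11, and 49.8% of all genes tested were below 0 with a median over all of them of 0.001. In 9 members, 37.5% of those tested, both COL8A1 libraries lay below both NC libraries, against 18.6% of all genes tested. In 1 member, SNHG11, both lay above, against 18.9%. These counts describe the members and are not a test, and the fitted values of members that share a pathway are not independent. The 95% interval of the log2 fold change lay between -1 and 1, within a 2-fold difference either way, in 14 of the 15 members with a mean of at least 10 CPM.

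**Figure D1:**
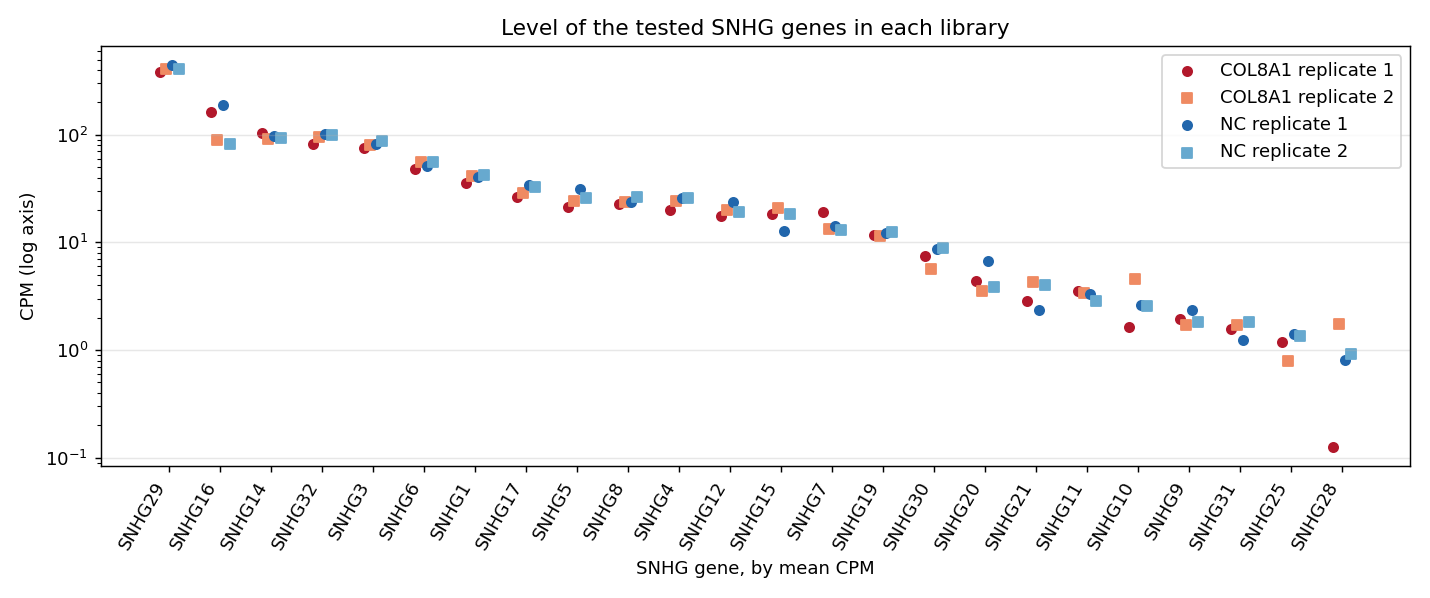
Level of the 24 tested SNHG genes in CPM (log axis), 1 point per library, in order of the mean over the 4 libraries; circles are replicates 1 and squares replicates 2. SNHG29 ran from 380.0 to 445 CPM, the replicates 1 and 2 of SNHG16 lay apart in both groups, and SNHG28 had 1 library far below the rest.

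Together the 28 members took 0.108% and 0.105% of the counts in the COL8A1 libraries, against 0.121% and 0.108% in the NC libraries, so the share of NC replicate 1 stood above the other 3. Their summed level was 1070 and 1055 CPM in COL8A1 cells and 1217 and 1072 CPM in NC cells. SNHG16 held 163 and 89.9 CPM of it in COL8A1 replicates 1 and 2, and 189 and 82.9 CPM in NC replicates 1 and 2. SNHG29 alone held 35.5% to 38.4% of the SNHG counts in each library. The median member deviated from its own mean by -0.092 and -0.0145 on the log2 CPM scale in COL8A1 replicates 1 and 2, and by 0.077 and 0.073 in NC replicates 1 and 2. COL8A1 replicate 1 was thus the library farthest below, and without COL8A1 replicate 2 the median log2 fold change was -0.17, over 1.5 times that with all libraries, while without COL8A1 replicate 1 it was -0.074.

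Among hosts of box C/D snoRNAs, SNHG29 (ENSG00000175061; chromosome 17, 16438822 to 16478678, plus strand in GENCODE release 29, where it is named LRRC75A-AS1) was the highest. It carries SNORD49A, SNORD49B and SNORD65. It had 12076 and 11237 counts in the COL8A1 libraries, against 13642 and 13749 in the NC libraries. The COL8A1 libraries were both lower, at 392 ± 17.4 CPM against 426 ± 26.1 CPM (SD, n = 2 each), a log2 fold change of -0.12 (SE 0.073, 95% interval -0.31 to 0.071, edgeR adjusted p = 0.837). Scaled by exon length it stood at 109 CPM per kilobase over the 4 libraries, the highest of the members, ahead of SNHG32 at 52.6, SNHG6 at 42.4, SNHG19 at 35.0 and SNHG8 at 26.3 CPM per kilobase.

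SNHG32 (ENSG00000204387; chromosome 6, 31834608 to 31839766, plus strand), listed as C6orf48 and as protein-coding in GENCODE release 29, carries SNORD48 and SNORD52. It had 2626 and 2653 counts in COL8A1 libraries, against 3114 and 3337 in NC libraries. Both COL8A1 libraries were again the lower ones, with 89.1 ± 9.12 CPM against 100.3 ± 1.80 CPM (SD, n = 2 each) and a log2 fold change of -0.17 (SE 0.098, edgeR adjusted p = 0.835). SNHG6 (ENSG00000245910; chromosome 8), host of SNORD87, had 1543 and 1552 counts in COL8A1 libraries, against 1572 and 1876 in NC libraries, and its CPM overlapped between the groups (log2 fold change -0.034, SE 0.113, edgeR adjusted p = 0.975).

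SNHG1 (ENSG00000255717, chromosome 11, 62851988 to 62855914, minus strand) carries SNORD22, SNORD25 to SNORD28 (SNORD27 is printed above) and SNORD30. It had 1125 and 1159 counts in COL8A1 libraries, against 1253 and 1428 in NC libraries. After scaling the groups overlapped, at 38.6 ± 4.48 CPM and 41.6 ± 1.07 CPM (SD, n = 2 each), with a log2 fold change of -0.11 (SE 0.119, edgeR adjusted p = 0.892). SNHG5 (ENSG00000203875; chromosome 6, 85660950 to 85678748, minus strand), host of the U50 family snoRNA SNORD50B, had 674 and 669 counts in COL8A1 libraries, against 967 and 877 in NC libraries. Its level was 22.6 ± 2.04 CPM in COL8A1 cells and 28.8 ± 3.90 CPM in NC cells (SD, n = 2 each), with no overlap. The log2 fold change of SNHG5 was -0.35 (SE 0.145, 95% interval -0.73 to 0.036, edgeR adjusted p = 0.819). It lay between -0.48 without NC replicate 2 and -0.20 without NC replicate 1.

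SNHG19 (ENSG00000260260; chromosome 16, 2154797 to 2155358, minus strand), a short host of SNORD60, had 369 and 318 counts in COL8A1 libraries, against 379 and 419 in NC libraries. Its replicates were close, at 11.5 ± 0.11 CPM in COL8A1 cells and 12.4 ± 0.051 CPM in NC cells (SD, n = 2 each), and the log2 fold change was -0.10 (SE 0.127, edgeR adjusted p = 0.906). SNHG30 (ENSG00000267321; chromosome 17), host of SNORD7, had 238 and 159 counts in COL8A1 libraries, against 266 and 299 in NC libraries, without overlap after scaling. Its log2 fold change was -0.41 (SE 0.202, edgeR adjusted p = 0.835).

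SNHG14 (ENSG00000224078; chromosome 15, 24978583 to 25419462, plus strand) is the long imprinted transcript of the Prader-Willi region and carries the SNORD116 and SNORD115 clusters; in neurons its distal part runs antisense to UBE3A. It had 3286 and 2554 counts in COL8A1 libraries, against 2996 and 3169 in NC libraries, and 97.7 ± 8.08 and 95.9 ± 2.60 CPM (SD, n = 2 each). The groups overlapped, and the log2 fold change was 0.027 (SE 0.090, 95% interval -0.21 to 0.26, edgeR adjusted p = 0.975). All 48 copies of SNORD115 were listed at 0 in every library. The 30 copies of SNORD116 summed to 16 and 15 counts in COL8A1 libraries, against 24 and 30 in NC libraries, with 7 copies at 0. Of these counts 1 copy, SNORD116-4, held 5 and 1 in COL8A1 libraries, against 12 and 15 in NC libraries. SNORD116-4 shares 96 bases with the exons of SNHG14. Every other copy had 0 to 2 counts in each library, and some were at exactly 1 in all, so the sum does not show a lower family. UBE3A, which shares exon bases with SNHG14 on the opposite strand, had 2932 and 2723 counts in COL8A1 libraries, against 2850 and 3251 in NC libraries. Without a known strand setting of the counting, reads of the 2 strands cannot be told apart.

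SNHG16 (ENSG00000163597; chromosome 17, 76557766 to 76565348, plus strand), host of SNORD1A, SNORD1B and SNORD1C, followed the replicate number and not the vector. It had 5168 and 2498 counts in COL8A1 replicates 1 and 2, against 5807 and 2794 in NC replicates 1 and 2. Replicate 1 thus stood above replicate 2 by 0.85 on the log2 scale in COL8A1 cells and by 1.19 in NC cells. Over the 9948 tested genes with a mean of at least 10 CPM, 115 (1.16%) had replicates more than 0.8 apart in both groups, 58 of them with the same replicate number higher, and the median gap was 0.13 in COL8A1 and 0.10 in NC. Between the vectors SNHG16 had a log2 fold change of -0.11 (SE 0.480, 95% interval -1.37 to 1.15, edgeR adjusted p = 0.982), so a 2-fold difference in either direction lies within its interval. Leaving out NC replicate 1 gave 0.61 and leaving out NC replicate 2 gave -0.60. The glioma gene EGFR, named after its values were seen, had the same pattern, with 3990 and 1776 counts in COL8A1 replicates 1 and 2 and 4552 and 2022 in NC replicates 1 and 2. SNHG16 was the only one of the 15 members at this level with such gaps in both groups.

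Hosts of H/ACA snoRNAs made up another 9 members, all tested. SNHG3 (ENSG00000242125; chromosome 1, 28505980 to 28510892, plus strand) carries SNORA73A and SNORA73B, the U17 RNAs that take part in cleavage of the ribosomal precursor. It had 2401 and 2243 counts in COL8A1 libraries, against 2538 and 2957 in NC libraries. Both COL8A1 libraries were lower, at 78.2 ± 3.69 CPM against 85.2 ± 3.51 CPM (SD, n = 2 each), with a log2 fold change of -0.13 (SE 0.083, edgeR adjusted p = 0.852). SNHG3 shares 242 exon bases with RCC1, a chromatin-bound exchange factor gene on the same strand, which had 2433 and 4617 counts in COL8A1 libraries, against 3563 and 3358 in NC libraries. The 2 COL8A1 replicates of RCC1 stood on either side of the NC libraries, and the sum of both genes had the other sign, 0.047 on the log2 scale (edgeR adjusted p = 0.986).

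SNHG17 (ENSG00000196756; chromosome 20, 38420588 to 38435353, minus strand), host of the SNORA71 family, had the smallest p-value of the members. It had 847 and 800 counts in COL8A1 libraries, against 1054 and 1115 in NC libraries, with close replicates in both groups. Its level was 27.7 ± 1.52 CPM in COL8A1 cells and 33.7 ± 0.91 CPM in NC cells (SD, n = 2 each). The log2 fold change was -0.28 (SE 0.100, 95% interval -0.55 to -0.018), and the edgeR p was 0.0406 before and 0.804 after adjustment. It stayed between -0.34 and -0.23 whichever library was left out. In DESeq2 its unadjusted p was 0.0758. With the replicate block or without a low-count filter, no member had an unadjusted edgeR p under 0.05. With RLE factors, library size alone, limma-voom or a filter of 1 CPM in 2 libraries, 1 lower member had an unadjusted p under 0.05. With same-strand genes that share exons summed, 3 of 24 members did in edgeR, 2 of them lower, against 6.07% of all genes tested. The 3 were SNHG17 and the sums of SNHG4 and SNHG20, described below. Most counts of those sums came from the partner genes, the MATR3 entry ENSG00000280987 and SEC14L1. Alone, these partners had unadjusted edgeR p-values of 0.0260 and 0.00544. The neighbour of SNHG17 on the same chromosome, SNHG11 (ENSG00000174365), is the host of SNORA71E and SNORA60 on the plus strand. SNHG11 had 112 and 94 counts in COL8A1 libraries, against 101 and 97 in NC libraries, with a log2 fold change of 0.16 (SE 0.234, edgeR adjusted p = 0.923).

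SNHG4 (ENSG00000281398; chromosome 5, 139274102 to 139284899, plus strand), host of SNORA74A, the U19 RNA, had 632 and 672 counts in COL8A1 libraries, against 796 and 864 in NC libraries. The groups did not overlap, and the log2 fold change was -0.23 (SE 0.135, edgeR adjusted p = 0.835). The nuclear matrix protein gene MATR3 has 2 entries in the table. SNHG4 shares 626 exon bases with 1 of them, ENSG00000280987, which had 3985 and 4405 counts in COL8A1 libraries, against 5624 and 7992 in NC libraries, and the sum of SNHG4 with this entry gave -0.53 on the log2 scale (edgeR adjusted p = 0.745). The other entry, ENSG00000015479, had 8059 and 2700 counts in COL8A1 libraries, against 2772 and 2486 in NC libraries, a log2 fold change of the other sign (1.10, SE 0.466, edgeR adjusted p = 0.824). SNHG4 and both entries together had 12676 and 7777 counts in COL8A1 libraries, against 9192 and 11342 in NC libraries, so that the groups overlapped. SNHG8 (ENSG00000269893; chromosome 4, 118278709 to 118279823, plus strand), host of SNORA24, had 729 and 664 counts in COL8A1 libraries, against 726 and 897 in NC libraries, with overlapping CPM and a log2 fold change of -0.10 (SE 0.114, edgeR adjusted p = 0.893).

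Of the H/ACA hosts with a mean of at least 10 CPM, 2 had fitted values above 0, and in each a single library set the value. SNHG15 (ENSG00000232956; chromosome 7, 44983023 to 44986961, minus strand), host of SNORA9, had 584 and 577 counts in COL8A1 libraries, against 389 and 623 in NC libraries, so that 1 NC library was low and the other lay near the COL8A1 libraries. The log2 fold change was 0.33 (SE 0.216, 95% interval -0.24 to 0.90, edgeR adjusted p = 0.852), and 0.083 without NC replicate 1. SNHG7 (ENSG00000233016; chromosome 9, 136721366 to 136728184, minus strand), host of SNORA17A and SNORA17B, had 608 and 371 counts in COL8A1 libraries, against 434 and 441 in NC libraries, so that COL8A1 replicate 1 alone was high. Its log2 fold change was 0.26 (SE 0.209, edgeR adjusted p = 0.867) with all libraries, and -0.028 without COL8A1 replicate 1.

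Hosts of both kinds were SNHG12 and SNHG25. SNHG12 (ENSG00000197989; chromosome 1, 28578538 to 28583132, minus strand) carries SNORD99 and the H/ACA RNAs SNORA61, SNORA44 and SNORA16A. It had 558 and 559 counts in COL8A1 libraries, against 729 and 644 in NC libraries, and overlapped after scaling (log2 fold change -0.19, SE 0.160, edgeR adjusted p = 0.873). SNHG25 (ENSG00000266402; chromosome 17), the host of SNORD104 printed above, had 38 and 22 counts in COL8A1 libraries, against 43 and 46 in NC libraries. With all libraries it had the lowest log2 fold change of the tested members, -0.47 (SE 0.381, edgeR adjusted p = 0.866), with an interval from -1.47 to 0.53. The value was -0.80 without COL8A1 replicate 1 and -0.21 without COL8A1 replicate 2, where SNHG28 stood lower at -2.75. SNHG25 has 278 exon bases and shares 133 of them with SNORA50C. SNORA50C had 18 and 25 counts in COL8A1 libraries, against 8 and 1 in NC libraries, the opposite direction to SNHG25. The sum of SNHG25 and SNORA50C was not fitted.

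**Figure D2:**
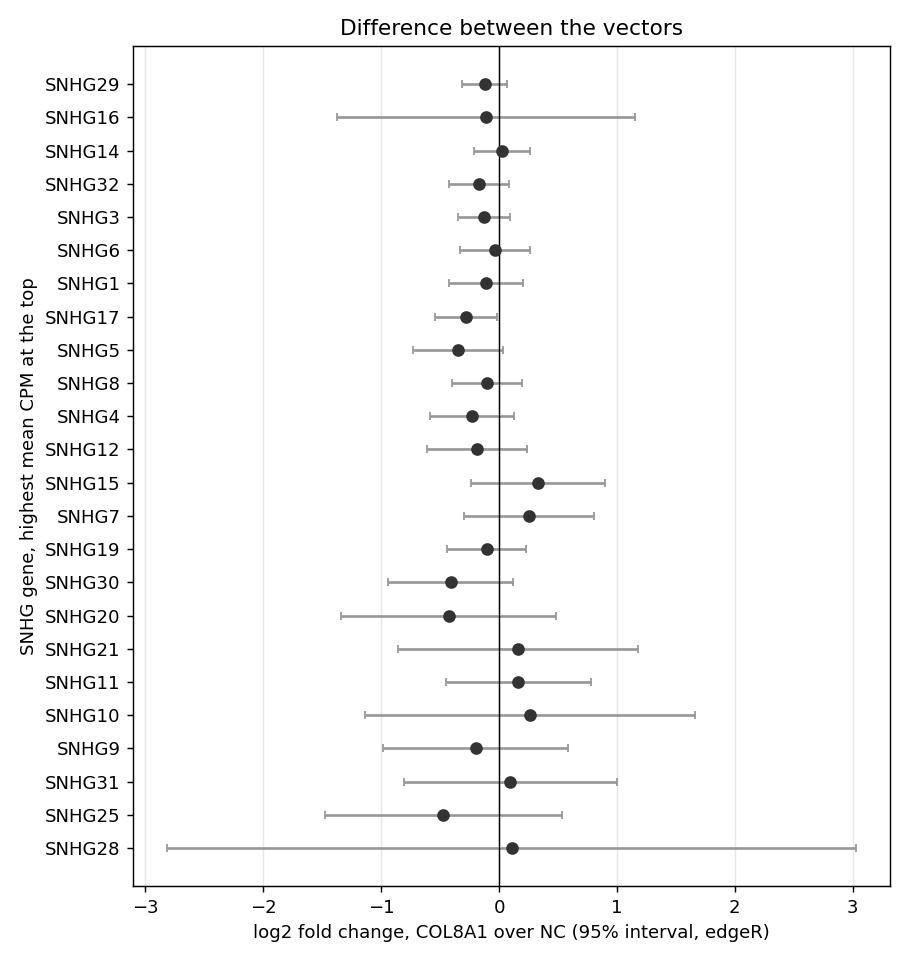
Fitted log2 fold change of COL8A1 over NC for the 24 tested SNHG genes (points) with the 95% interval of the edgeR test (bars), in order of mean CPM with the highest at the top. The interval of SNHG17 alone, -0.55 to -0.018 before adjustment, lies off 0, and those of SNHG16 and SNHG28 are wide.

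The remaining members had few reads, and several share exons with better counted genes. Over all 28 members, 7 share exon bases with a gene on the same strand and 12 with a gene on the opposite strand, snoRNAs left aside. SNHG20 (ENSG00000234912; chromosome 17), host of the scaRNA SCARNA16, had 138 and 98 counts in COL8A1 libraries, against 208 and 129 in NC libraries (log2 fold change -0.43, SE 0.348, edgeR adjusted p = 0.867). SEC14L1, a lipid-binding protein gene that shares 460 exon bases with SNHG20 on the same strand, had 6314 and 5911 counts in COL8A1 libraries, against 4000 and 3091 in NC libraries (log2 fold change 0.89, SE 0.181, edgeR adjusted p = 0.572). The sum of SNHG20 with its same-strand partners therefore had the other sign, 0.85.

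SNHG10 (ENSG00000247092), host of SCARNA13, had 52 and 127 counts in COL8A1 libraries, against 80 and 86 in NC libraries, so that the COL8A1 libraries lay on either side of the NC libraries (log2 fold change 0.26, SE 0.531, edgeR adjusted p = 0.950). It shares 20.1% of its exon bases with GLRX5, an iron-sulphur cluster gene on the opposite strand, which had 1650 and 1374 counts in COL8A1 libraries, against 1417 and 1550 in NC libraries. SNHG21 (ENSG00000250988), host of SCARNA15, had 90 and 119 counts in COL8A1 libraries, against 72 and 135 in NC libraries (log2 fold change 0.16, SE 0.388, edgeR adjusted p = 0.962). In SNHG21 replicate 2 was the higher library in both groups. It shares 72.9% of its exon bases with ENSG00000252690 on the same strand, and the sum of both gave -0.19 on the log2 scale (edgeR adjusted p = 0.899). SNHG28 had 4 and 49 counts in COL8A1 libraries, against 25 and 31 in NC libraries (log2 fold change 0.11, SE 1.11, edgeR adjusted p = 0.993). All of its exon bases are shared with a protein-coding entry, ENSG00000256029, that GENCODE release 29 also names SNHG28. That entry had 2 to 16 counts. Reads of the locus may thus be split over 2 entries of 1 name, which summed, with the same-strand gene VSIG8, to 6 and 65 counts in COL8A1 libraries, against 29 and 33 in NC libraries. SNHG9 and SNHG31, both H/ACA hosts, had between 38 and 72 counts in each of the 4 libraries. The log2 fold change was -0.20 for SNHG9 (SE 0.299, edgeR adjusted p = 0.928) and 0.097 for SNHG31 (SE 0.342, edgeR adjusted p = 0.977). Of the 4 members that were not tested, SNHG26 and SNHG27 had 0 counts in each library, SNHG18 had 2 counts in NC replicate 1 and 0 elsewhere, and SNHG22 had 5 and 0 counts in COL8A1 libraries, against 6 and 8 in NC libraries.

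**Figure D3:**
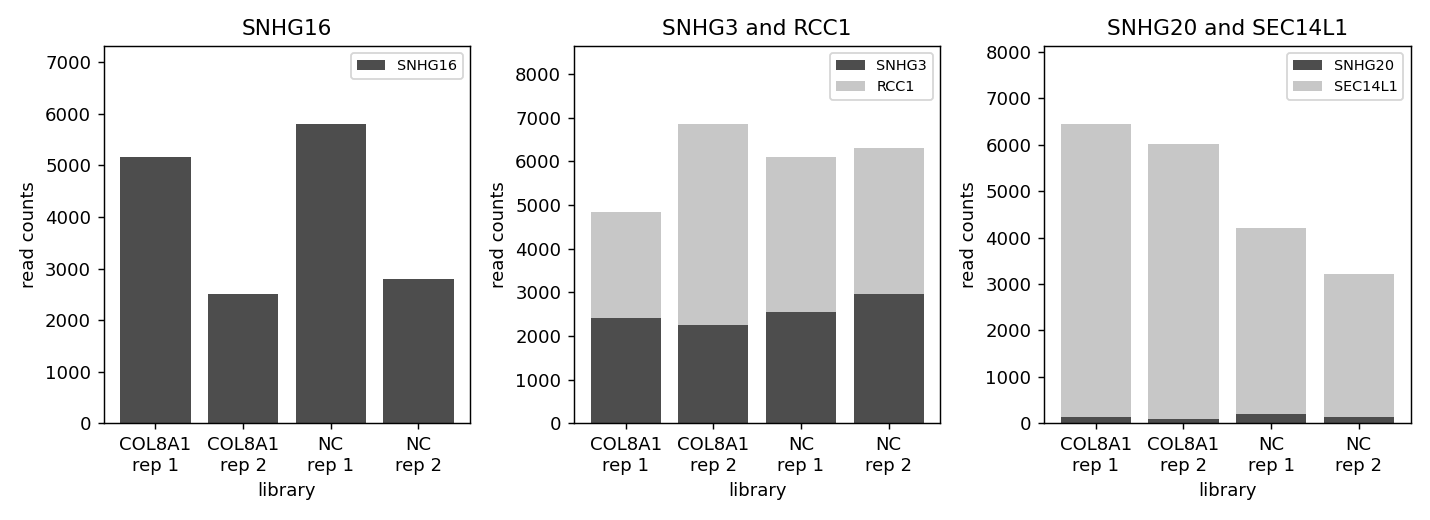
Read counts per library (bars from 0) of SNHG16, of SNHG3 stacked with RCC1, and of SNHG20 stacked with SEC14L1. SNHG16 parted the replicate numbers in both groups, SNHG3 held between 2243 and 2957 counts while RCC1 ran from 2433 to 4617, and SNHG20 was a small part of its sum with SEC14L1.

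By the kind of snoRNA named inside the gene in GENCODE, 8 of 9 tested C/D hosts and 5 of 9 tested H/ACA hosts had a log2 fold change below 0, with medians of -0.11 and -0.10. The C/D hosts had a median level of 24.5 CPM per kilobase of exon and the H/ACA hosts of 4.82 CPM per kilobase, over ranges of 2.23 to 109 and 0.75 to 26.3 that overlap. The 4 tested members with neither kind ran from 0.40 to 3.20 CPM per kilobase. Exon length was taken as the union over all GENCODE release 29 transcripts, which lowers the scaled level of a gene with many annotated exons such as SNHG14, at 43324 bases.

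The small RNAs themselves had low values in the table, and many of these values may not be read counts. Inside the members lay 139 small RNA genes, and the highest count of any of them was 70. Of the 55 outside SNHG14, 23 were listed at exactly 1 count in all 4 libraries, among them SNORD49A and SNORD65. This held for 20 of 36 that share exon bases with an annotated transcript of their host and for 3 of 19 that lie in introns alone. Of the 36 that share exon bases, 0 were listed at 0 in every library, and their highest count was 50. Over all 61806 genes, 323 were listed at exactly 1 in each library, 80 of them among the 553 snoRNA and scaRNA entries, while 8 genes were at exactly 2 in each library and 1 at exactly 3. How these values of 1 arose is not given in the sources used here. Whether reads in bases shared with a host exon were assigned to neither gene was not tested. The low values are therefore not read as low levels of the snoRNAs. SNORD27 had 43 and 31 counts in COL8A1 libraries, against 38 and 35 in NC libraries, and SNORD104 had 50 and 58 counts in COL8A1 libraries, against 51 and 55 in NC libraries, so the groups overlapped in both. SNORA24 had 50 and 20 counts in COL8A1 libraries, against 27 and 31 in NC libraries. SNORD27 and SNORA24 share all of their 72 and 131 bases with exons of their hosts. Other small RNAs, picked after their values were seen, parted the groups in raw counts, in either direction. SNORA73B in SNHG3, which held the highest count, had 70 and 61 counts in COL8A1 libraries, against 47 and 47 in NC libraries. SNORA71B in SNHG17 had 13 and 4 counts in COL8A1 libraries, against 23 and 28 in NC libraries. The cause of these differences was not tested.

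Noncoding snoRNA hosts without the SNHG symbol were set beside them. Of 4 tested, 3 lay below 0 and 1 above on the log2 fold change scale, the median was -0.068, and 0 passed the edgeR threshold or were called by DESeq2. At an unadjusted edgeR p under 0.05 there was 1 of the 4 (25%), GAS5, against 6.07% of all genes tested. GAS5, which is also known as a decoy of the glucocorticoid receptor, had 83.9 ± 3.43 CPM in COL8A1 cells and 100.9 ± 1.27 CPM in NC cells (SD, n = 2 each), or -0.27 on the log2 scale with an SE of 0.075. The edgeR p was 0.0184 before and 0.700 after adjustment. DANCR had a log2 fold change of -0.11 (SE 0.108, edgeR adjusted p = 0.885). The CPM of ZFAS1 overlapped between the groups (-0.0255, SE 0.087, edgeR adjusted p = 0.975), as did that of EPB41L4A-AS1 (0.53, SE 0.565, edgeR adjusted p = 0.889). MEG8 was listed at 0 in each library.

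Protein-coding snoRNA hosts, mostly ribosomal protein and translation factor genes with TOP starts, had 26 of 37 members below 0 and 11 above on that scale, a median of -0.059 and 0 past the edgeR threshold. An unadjusted edgeR p under 0.05 was reached by 1 higher and 3 lower members, 10.8% of the list in all and 8.11% lower, against 6.07% in all and 2.63% lower of the genes tested. DESeq2 called 0. RPL32 was at 641 ± 35.7 CPM in COL8A1 cells and 509 ± 31.1 CPM in NC cells (SD, n = 2 each), with a log2 fold change of 0.33 (SE 0.074, edgeR adjusted p = 0.591). NOP56, both a snoRNA host and a core protein of the box C/D particle, was at 122 ± 10.3 CPM in COL8A1 cells and 159 ± 3.91 CPM in NC cells (SD, n = 2 each), with a log2 fold change of -0.38 (SE 0.086, edgeR adjusted p = 0.605).

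Proteins of the snoRNA particles and their assembly had 17 of 18 members below 0 and 1 above in log2 fold change. Their median was -0.13, 0 passed the edgeR threshold or that of DESeq2, and 2 had an unadjusted edgeR p under 0.05, NOP56 and PIH1D1, both lower (11.1%, against 2.63% lower of all genes tested). In 12 of the 18, or 66.7%, both COL8A1 libraries lay below both NC libraries, against 18.6% of all genes tested. PIH1D1, a subunit of the R2TP assembly complex, was at 23.1 ± 1.18 CPM in COL8A1 cells and 30.5 ± 1.97 CPM in NC cells (SD, n = 2 each), with a log2 fold change of -0.40 (SE 0.109, edgeR adjusted p = 0.683). The summed level of the list was 1427 and 1506 CPM in COL8A1 libraries, against 1678 and 1594 CPM in NC libraries.

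Factors of nonsense-mediated decay, which degrades many SNHG transcripts, had 11 of 18 members below 0 and 7 above. The median log2 fold change was -0.015, with 0 at an unadjusted edgeR p under 0.05. The smallest p-values were those of GSPT1, a translation termination factor (log2 fold change 0.15, SE 0.062, edgeR adjusted p = 0.820), and EIF4A3, a core protein of the exon junction complex (-0.14, SE 0.077, edgeR adjusted p = 0.835).

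**Figure D4:**
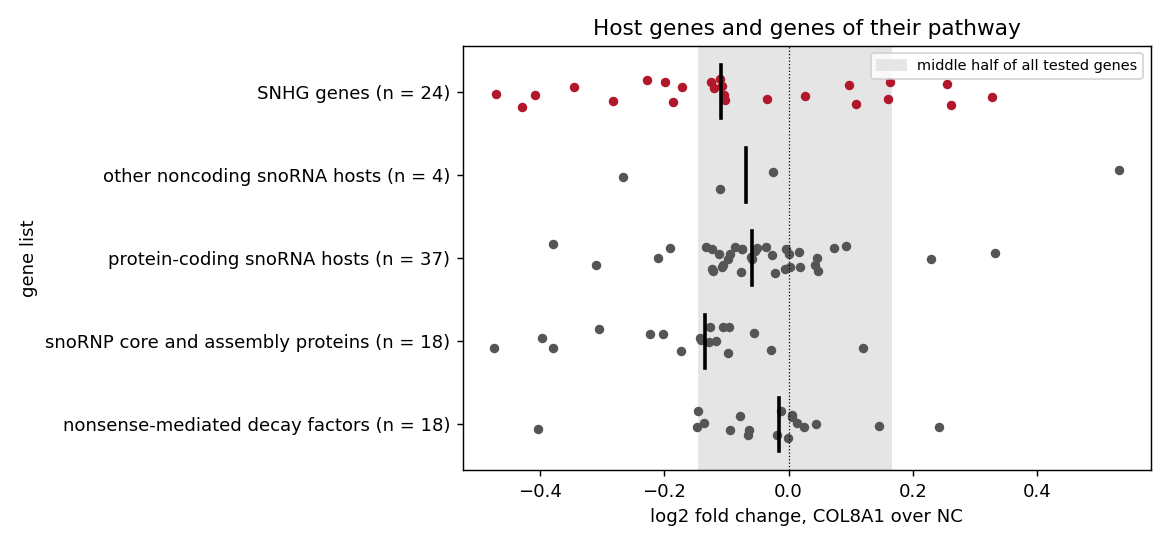
Log2 fold change of COL8A1 over NC for the tested genes of each list (points; black bars are medians, points are shifted vertically at random), with the range between the quartiles of all 17030 tested genes, -0.14 to 0.17, in grey. The medians of SNHG genes, -0.11, and of snoRNA particle proteins, -0.13, lie in the grey range, left of 0.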

How the data were processed

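Total RNA of 4 U251-MG libraries was sequenced, per the labels' protocols. The authors deposited a table of whole-number counts, taken here as unnormalized read counts, with a column for each library and a line for each gene; 323 genes listed at exactly 1 in each library may be an exception. The submitters' processing notes name HISAT2 2.2.1, Trim Galore 0.6.9, featureCounts (given there as 0.3) and hg38. How strands and shared or multi-mapped reads were treated, and which annotation was used, is not given in the sources used here. Whether PCR copies were removed before counting is not given either.

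From the counts, edgeR 4.0.16 in R 4.3.3 was run with filterByExpr, TMM factors and the quasi-likelihood test on 17030 genes, with Benjamini-Hochberg adjustment over all of them and a threshold of 0.05. The SE and 95% intervals restate that test. CPM use TMM-scaled library sizes. All 28 members were placed on GENCODE release 29 by gene ID, and 1 line that names no gene was left out. Alternatives were RLE factors, library size alone, no filter, 1 CPM in 2 libraries, a replicate block, DESeq2 1.42.0, limma-voom (limma 3.58.1) and each library left out; sums with same-strand genes that share exons were added after seeing the data. The members and lists were chosen with earlier results of these data known. Members with a mean of at least 10 CPM were named, then the 3 highest and 3 lowest log2 fold changes among the rest, and the 2 smallest p-values of each list; the other members are given to account for each.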

Additional observations from a re-analysis of the deposited data

How the results depend on the processing

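No SNHG gene passed the threshold under any of the 12 alternatives, each member being fitted with all genes. Over all genes, edgeR called 2; without a low-count filter it called 17, DESeq2 called 144, and with the replicate block edgeR called 1. Between 0 and 3 were called when 1 library was left out. The median log2 fold change of the tested SNHG genes ran from -0.17 (without COL8A1 replicate 2) to -0.074 (without COL8A1 replicate 1), and from -0.12 to -0.10 under the alternatives that kept all libraries. Of 287 values of single members, 267 kept their sign and 20 changed it. In edgeR with all libraries and no block SNHG28 was at 0.11. With the replicate block, which gave a median of -0.12, it was at -0.56, and with limma-voom at -0.91. The labels do not say that a replicate number marks a shared batch, and the replicate deviations of the 2 groups correlated at -0.036 over 17030 genes and 0.36 over the 24 tested members, so the numbers were not taken as pairs. Summed with same-strand genes that share exons, SNHG3 was at 0.047, SNHG14 at -0.0067, SNHG20 at 0.85 and SNHG21 at -0.19. With 1 library left out, the sign changed within the ranges -0.235 to 0.0041 for SNHG1, -0.14 to 0.064 for SNHG6, -0.028 to 0.49 for SNHG7, -0.66 to 0.82 for SNHG10, -0.060 to 0.11 for SNHG14, -0.60 to 0.61 for SNHG16, -0.79 to 0.041 for SNHG20, -0.17 to 0.59 for SNHG21, -2.75 to 1.02 for SNHG28 and -0.15 to 0.39 for SNHG31. Without a change of sign, other values moved by over 1.5 times, within -0.18 to -0.078 for SNHG3, -0.38 to -0.092 for SNHG4, -0.48 to -0.20 for SNHG5, -0.18 to -0.0195 for SNHG8, -0.37 to -0.013 for SNHG9, 0.065 to 0.26 for SNHG11, -0.34 to -0.020 for SNHG12, 0.083 to 0.62 for SNHG15, -0.80 to -0.21 for SNHG25, -0.185 to -0.056 for SNHG29, -0.62 to -0.23 for SNHG30 and -0.28 to -0.070 for SNHG32. SNHG17 and SNHG19 moved by less. In these fits 1 group holds 1 library, which is assumed to vary like the other group. The cause of these changes was not tested.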
